A study of Mus musculus with 26 samples.

Results

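The comparison taken here is between cells of embryonic day 13.5 (E13.5) spinal cord and cells of E13.5 brain from 1 mouse line, *Pdgfra*-H2B-GFP. The members were chosen by sample label, 3 chips of spinal cord (chips 4, 7 and 8) against 6 chips of brain (chips 1, 2, 3, 6, 24 and 25), and a well counted as a cell when it held at least 1000 molecules outside mitochondrial, spike-in and marker rows. This gave 209 spinal cord cells and 293 brain cells, together 502 of the 1514 cells of the whole series. In this line a histone-bound green fluorescent protein (GFP) was knocked into the *Pdgfra* locus. According to the methods of the study the mice were heterozygous, so every cell of both regions carried 1 disrupted *Pdgfra* copy, and embryos of both sexes were used. Forebrain and spinal cord were dissociated mechanically, GFP-positive cells were sorted onto Fluidigm C1 chips with 96 wells each, and libraries were made by STRT-seq, in which molecular identifiers allow single mRNA molecules to be counted.

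*Pdgfra*, the receptor for platelet-derived growth factor that marks oligodendrocyte precursor cells (OPCs) after birth, is in the embryo also made by mesenchyme around the nervous system and by some neural progenitors, and a stable nuclear GFP can outlast the mRNA. The sorted cells were therefore read in 2 sets as well as together. Along the neuraxis, position is written in transcription factors. Hox genes, arranged in clusters in which the order of the genes follows the order of their expression along the body, are used from the hindbrain backwards, while the forebrain uses factors such as *Six3* and *Otx2*, and its ventral part *Nkx2-1*, *Lhx6* and the *Dlx* genes.

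Depth differed between chips. The GFP transcript itself gave 26 molecules in 14 brain cells and 50 molecules in 34 spinal cord cells. The cells of a chip held 64437 to 504603 molecules in brain and 192356 to 551485 in spinal cord, and the median cell held 1852 to 6039 molecules in brain and 2670 to 6802 in spinal cord. All 3 spinal cord chips belonged to 1 experiment number and the brain chips to 2 others, so region and experiment cannot be told apart. Chips were taken as replicates, and where chips shared a suspension the p-values measure technical spread. No pair among the 18 pairs of replicate chips agreed within counting noise, and no 2 cells held identical counts. Of the marker lists for other cells, endothelial, microglial, erythroid and muscle genes gave no gene that could be tested. Their summed levels stayed at or below 93.4 molecules per 1e6 molecules (CPM), and 7 of 10 microglial and 6 of 7 erythroid markers had no molecule.

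**Figure D1:**
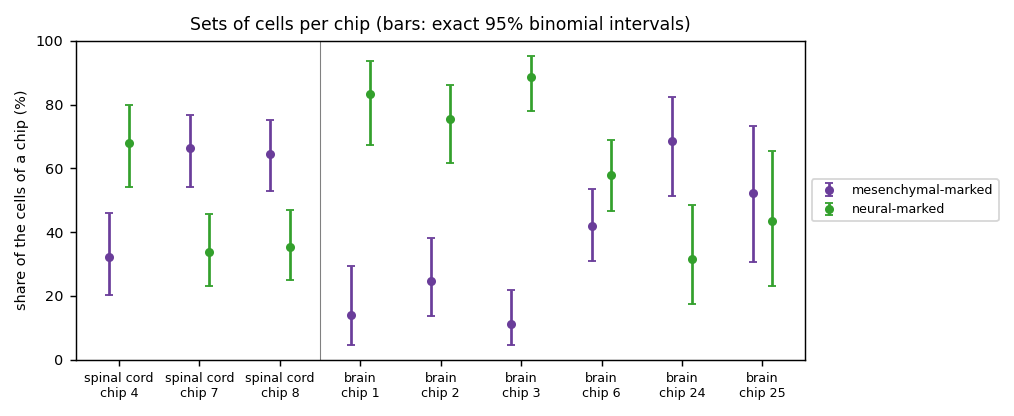
Share of the cells of each chip (y axis, percent) that were mesenchymal-marked or neural-marked, with exact 95% binomial intervals, for 3 spinal cord and 6 brain chips. The shares overlapped between regions, with mesenchymal-marked cells at 32.1% to 66.2% in spinal cord and 11.3% to 68.4% in brain.

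Cells were called mesenchymal-marked with at least 3 molecules from at least 2 of 18 genes of connective tissue (collagens, *Dcn*, *Lum* and others) and more of these than of the neural list, and neural-marked by the same rule with 24 genes of neurons and neural progenitors (*Tubb3*, *Stmn2*, *Sox2* and others). Mesenchymal-marked cells made up 54.3% ± 19.2 (SD, n = 3 chips) of spinal cord cells and 35.4% ± 22.7 (n = 6) of brain cells, a difference of 18.9 percentage points (exact permutation test, two-sided, p = 0.238; these chips allow no p below 0.0238). Neural-marked cells made up 45.7% ± 19.2 and 63.4% ± 22.9 (exact permutation p = 0.310). The spread between chips of 1 region was as large as the difference between regions, as the plot of shares by chip shows. Many cells held molecules of both lists, 138 of 209 in spinal cord and 158 of 293 in brain, and among mesenchymal-marked cells 90.7% in spinal cord and 83.5% in brain. In 60 spinal cord and 55 brain cells the leading list held less than 3 times the molecules of the other. With cells of both lists taken out of the class the difference in the mesenchymal share turned to -3.18 percentage points (exact permutation p = 0.976).

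*Pdgfra* itself stood at 109, 177 and 172 CPM in spinal cord chips 4, 7 and 8 and between 21.4 and 589.7 CPM in brain (median 148). The groups overlapped (log2 fold change -0.41, SE 0.60, edgeR FDR 0.884), and the sign turned in 4 alternatives. A molecule of *Pdgfra* was seen in 76 of 118 mesenchymal-marked spinal cord cells and in 44 of 97 such brain cells. Among neural-marked cells the counts were 19 of 91 and 19 of 194. The median mesenchymal-marked cell held 5258 molecules in spinal cord and 3212 in brain. With every cell thinned to equal depth the order turned in mesenchymal-marked cells, at 17.9% in spinal cord and 22.8% in brain. In neural-marked cells the thinned shares were 5.56% and 3.80%. *Olig1* and *Olig2*, factors of the oligodendrocyte lineage, had log2 fold changes of -1.68 (FDR 0.244) and -1.94 (FDR 0.244). None of the 7 tested genes of the OPC list passed the test.

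With all cells of a chip summed, 109 of 5281 genes passed the edgeR test at an FDR of 0.05 (2.06%), of which 60 were higher in spinal cord (1.14%) and 49 lower (0.928%). Chips of the 2 regions did not overlap for 316 genes (5.98%), 169 higher (3.2%) and 147 lower (2.78%). The count was 63 without spinal cord chip 8 and 68 without chip 4. Hox genes were among the largest differences towards spinal cord, and transcription factors of the forebrain among the largest towards brain.

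The Hox genes of the mouse lie in 4 clusters, which in GRCm38 run from 52155590 to 52260880 on chromosome 6 (Hoxa), 96194316 to 96368256 on chromosome 11 (Hoxb), 102921103 to 103036852 on chromosome 15 (Hoxc) and 74668310 to 74765142 on chromosome 2 (Hoxd). Of the 39 Hox genes, 29 had a molecule in spinal cord and 3 in brain, and 10 had none in either. The filter on low counts left 14, which it could do only through the spinal cord side. All 14 passed the test, with values that did not overlap between the regions, and 13 of them had no molecule in brain. Since the filter fixed their direction, these counts are a description, and nothing is read from them against the 1.14% of all genes that were higher or the 3.2% that did not overlap. These 13 were at least 29.0-fold to at least 148-fold higher in spinal cord, where the bound takes 3 molecules over all brain cells. A further 15 Hox genes had spinal cord molecules but too few to be tested. Neighbouring Hox transcripts can overlap, and how the authors divided such reads is not given in the sources used here.

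Promoters of 2 Hox genes from 2 clusters, and of 1 gene of each kind that was lower in spinal cord (*Dlx2* of the ventral forebrain and *Msx1* of mesenchyme), are printed to show the regions from which these transcripts start. Each window of 300 bases spans the transcription start (RefSeq, GRCm38.p6) and is written 5′ to 3′ on the gene's strand. Capitals mark CCAAT and GGGCGG on either strand.
Hoxa5, chr6:52204538-52204837, minus strand: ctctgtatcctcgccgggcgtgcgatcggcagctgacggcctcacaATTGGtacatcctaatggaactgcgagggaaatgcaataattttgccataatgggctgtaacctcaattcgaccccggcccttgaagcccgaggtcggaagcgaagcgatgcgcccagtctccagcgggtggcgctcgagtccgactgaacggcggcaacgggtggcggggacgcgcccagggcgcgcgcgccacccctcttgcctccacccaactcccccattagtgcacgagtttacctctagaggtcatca
Hoxb4, chr11:96318017-96318316, plus strand: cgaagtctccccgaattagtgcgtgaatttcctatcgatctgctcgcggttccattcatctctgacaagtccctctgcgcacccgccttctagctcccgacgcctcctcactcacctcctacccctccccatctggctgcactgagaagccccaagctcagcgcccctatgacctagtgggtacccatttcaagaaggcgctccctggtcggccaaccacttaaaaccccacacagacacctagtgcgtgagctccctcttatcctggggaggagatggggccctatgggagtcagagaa
Dlx2, chr2:71546705-71547004, minus strand: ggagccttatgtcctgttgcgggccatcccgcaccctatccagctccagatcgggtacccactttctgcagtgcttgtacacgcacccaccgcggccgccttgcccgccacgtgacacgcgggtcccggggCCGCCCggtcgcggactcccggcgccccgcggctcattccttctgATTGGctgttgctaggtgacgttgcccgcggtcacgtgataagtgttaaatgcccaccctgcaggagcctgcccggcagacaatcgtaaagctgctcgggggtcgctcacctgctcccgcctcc
Msx1, chr5:37824536-37824835, minus strand: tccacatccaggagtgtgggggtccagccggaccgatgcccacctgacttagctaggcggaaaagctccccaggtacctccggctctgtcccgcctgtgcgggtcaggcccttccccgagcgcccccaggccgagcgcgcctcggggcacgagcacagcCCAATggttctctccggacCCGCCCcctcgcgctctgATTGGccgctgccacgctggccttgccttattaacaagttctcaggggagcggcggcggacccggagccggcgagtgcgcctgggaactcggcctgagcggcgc

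The 4 promoters held 61.7%, 58.0%, 66.3% and 70.0% G and C, against a median of 52.7% over 32851 promoters of the table. The *Hoxa5*, *Dlx2* and *Msx1* windows each held 29 CpG pairs and *Hoxb4* 14, where the median was 7. CCAAT occurred in 37.4% of all promoters, GGGCGG in 35.7%, TATAAA in 13.6% and TAATTA, the core of many homeodomain sites, in 5.29%. Neither TATAAA nor TAATTA occurred in the 4 windows.

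*Hoxb3* was at 509.5, 388 and 375 CPM in spinal cord chips 4, 7 and 8 and had no molecule on the 6 brain chips (at least 148-fold higher, FDR 6.65e-07). *Hoxa5* was at 743, 222 and 247 CPM (at least 118-fold, FDR 5.50e-06). *Hoxb5* was at 671, 272 and 214 CPM (at least 114-fold, FDR 4.98e-06). Each of these genes stood highest on chip 4 and was far above brain on each chip. *Hoxc8*, a gene of the trunk, was at 255, 204 and 176 CPM (at least 73.2-fold, FDR 4.98e-06). *Hoxb9* was at 478, 367 and 375 CPM and was the only tested Hox gene seen in brain, with 1 molecule on chip 25 (FDR 6.33e-08). Brain held 5 Hox molecules in all, in 2 mesenchymal-marked cells.

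**Figure D2:**
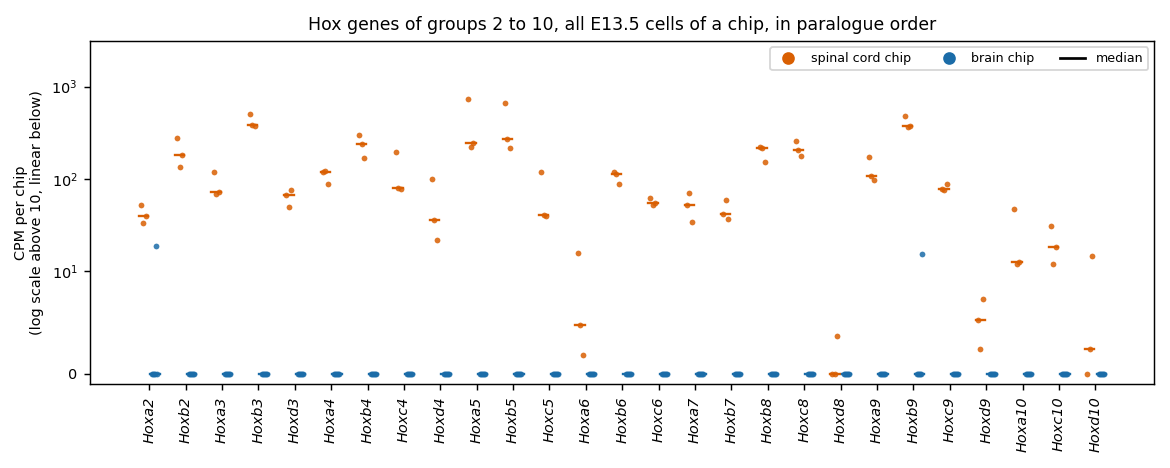
Level of each Hox gene of paralogue groups 2 to 10 that had a molecule (y axis, CPM per chip, log scale above 10 and linear below), in paralogue order on the x axis. Points are the 3 spinal cord and 6 brain chips and bars their medians, and brain lies at 0 except for single points of *Hoxa2* and *Hoxb9*.

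By paralogue group, the number at the end of the gene name, spinal cord levels were 168 to 327.5 CPM in group 2, 506 to 697 CPM in group 3 and 500.5 to 1534 CPM in group 5. Group 7 was low (70.7 to 130 CPM), group 9 reached 551 to 733 CPM, and group 10 fell back to 26.0 to 78.0 CPM. Groups 11 to 13, which pattern the tail end of the body, had no molecule on any chip. By cluster, Hoxb gave 2135 of the spinal cord molecules, Hoxa 859, Hoxc 590 and Hoxd 139. Of the Hox cofactor list (*Meis* and *Pbx* genes), 1 of 8 tested genes passed, *Meis1*, which was higher in spinal cord (1.14% of all genes). *Meis1* was at 270, 154 and 203 CPM in spinal cord and 0 to 84.1 CPM in brain (log2 fold change 2.09, SE 0.42, FDR 0.00657), a call lost in 2 of 15 alternatives.

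Hox molecules were found in both sets of spinal cord cells. Of the mesenchymal-marked spinal cord cells, however, 90.7% also held the neural list. The part of neural RNA in their Hox molecules was not tested. A Hox molecule was seen in 116 of 118 mesenchymal-marked and 91 of 91 neural-marked spinal cord cells, and in 2 of 97 and 0 of 194 such brain cells. A count of 0 allows up to 1.55% of cells with a molecule and does not bound expression too low to be detected, at a median of 2817 molecules per neural-marked brain cell. With every cell thinned to 1000 molecules the shares were 82.1%, 96.7%, 1.09% and 0%. All Hox genes together stood at 6353, 3859 and 3502 CPM in the neural-marked cells of chips 4, 7 and 8 and at 1468, 2455 and 2309 CPM in the mesenchymal-marked cells of the same chips. The neural-marked cells were thus 1.52 to 4.33 times higher on each of the 3 chips, and 3 pairs cannot go below p = 0.25 (two-sided exact paired permutation test, p = 0.25). The widest gap was that of group 5 on chip 4 (2108 against 222 CPM). Among groups 2 to 10 the order turned in group 8 of chip 8, with 303 CPM in neural-marked and 349.5 CPM in mesenchymal-marked cells, and on chip 4 in group 7 (89.7 and 102.5 CPM) and group 10 (59.8 and 119.5 CPM). The test of the difference between the sets cannot be made for genes without molecules in brain.

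**Figure D3:**
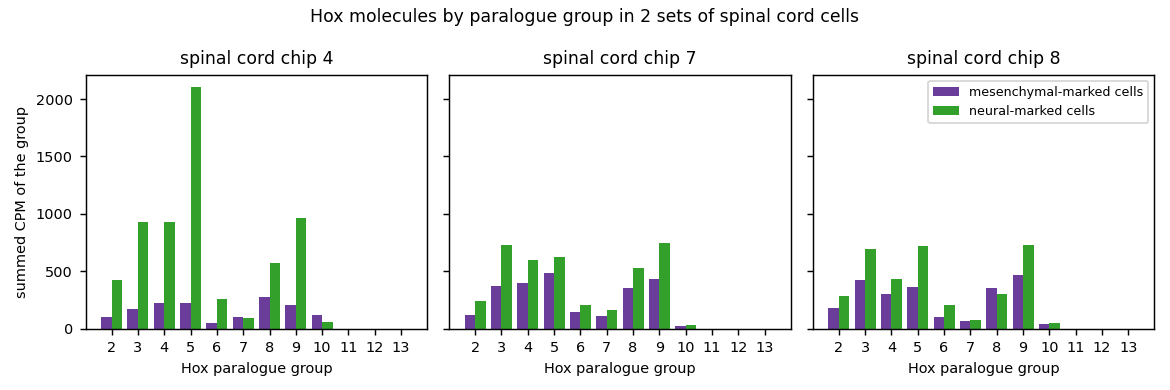
Summed level of each Hox paralogue group from 2 to 13 (x axis) in CPM (y axis, from 0) in mesenchymal-marked and neural-marked cells of spinal cord chips 4, 7 and 8. Groups 3, 4, 5, 8 and 9 carry most molecules in both sets, and groups 11 to 13 are at 0.

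Of the forebrain transcription factors, 19 of 34 could be tested and 14 were lower in spinal cord (0.928% of all genes were), none higher. Of the 19, 11 had no spinal cord molecule and passed the filter only through brain. The count and the median log2 fold change of -7.46 (-0.04 over all tested genes) were set in part by that and are a description. *Dlx2*, which drives interneuron development in the ventral forebrain, was at 0 on all spinal cord chips and at 168 to 337 CPM in brain (median 234, at least 105-fold lower in spinal cord, FDR 1.08e-06). *Lhx6*, a factor of interneurons of the medial ganglionic eminence, was at 0 and at 93.4 to 394 CPM (median 201, at least 90.9-fold, FDR 4.98e-06). Both were present on every brain chip and on no spinal cord chip.

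*Nkx2-1*, *Six3* and *Lhx8* followed the same form, with no spinal cord molecule and at least 39.4-fold, 40.5-fold and 23.9-fold lower levels (FDR 7.00e-05, 7.47e-05 and 0.00335). *Dlx1* was at least 95.1-fold lower and the RNA *Dlx6os1* at least 93.0-fold. *Dlx1os*, which overlaps *Dlx1* on the other strand, was at least 91.9-fold lower, and whether counting used strand is not given in the sources used here. *Dlx5* and *Otx2* also had no spinal cord molecule, but were each missing from 1 brain chip (chip 25 and chip 24). *Sp9* and *Pax6* kept single molecules in spinal cord, with log2 fold changes of -5.77 and -5.26. *Nr2f1*, a nuclear receptor used in both regions, differed by -1.50 on the log2 scale (SE 0.32, FDR 0.00983), at 213 to 312 CPM in spinal cord and 458 to 1225 CPM in brain. Its call was lost in 4 of 17 alternatives, among them each that left out a spinal cord chip. That of *Sp9* was lost in 1 of 16.

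Of the GABAergic list, 12 genes were tested, of which 5 were lower in spinal cord (0.928% of all genes), 2 higher (1.14% of all genes) and 5 did not pass. *Sox6*, a factor of ventral forebrain interneurons, was at 26.0, 49.7 and 23.6 CPM in spinal cord and 200.4 to 497 CPM in brain (log2 fold change -3.06, SE 0.41, FDR 7.47e-05). *Gad2*, which makes the transmitter GABA, was at 67.6, 26.0 and 34.5 CPM against 121 to 543 CPM (-2.60, SE 0.51, FDR 0.00569), a call lost in 4 of 17 alternatives. Both were lower on every spinal cord chip than on any brain chip. *Npy*, a neuropeptide, went the other way, at 291, 532 and 647 CPM against 45.3 to 112 CPM (2.60, SE 0.32, FDR 3.41e-05). By cell, an *Npy* molecule was seen in 41 of 209 spinal cord and 43 of 293 brain cells (14.8% and 7.17% when thinned). *Slc17a6*, the vesicular glutamate transporter, was also higher, at 208, 104 and 131 CPM against 0 to 104 CPM (2.59, SE 0.59, FDR 0.0188), with brain chip 1 just under spinal cord chip 7, and its call was lost in 6 of 16 alternatives. Of the neuroblast list 1 of 26 tested genes passed, *Tagln3*, and of the remaining transmitter genes *Slc17a6* was the only one of 4. Both were higher in spinal cord, as were 1.14% of all genes. The call of *Tagln3* was lost in 3 of 17 alternatives.

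Of the spinal transcription factors, 9 of 43 could be tested, 3 were higher (1.14% of all genes) and none lower, and the median log2 fold change was 1.28. *Pax2*, without a brain molecule, and *Tlx3*, with 5, passed the filter only through spinal cord. The count and the median were set in part by that and are a description. *Pax2*, a factor of dorsal inhibitory interneurons, was at 192, 111 and 132 CPM and had no molecule in brain (at least 49.5-fold, FDR 2.98e-05). *Tlx3*, which specifies glutamatergic neurons of the dorsal horn, was at 218, 85.2 and 87.0 CPM against 0 to 12.9 CPM (log2 fold change 4.58, FDR 0.000312). *Pou4f1*, a factor of sensory and dorsal neurons, was at 203, 156 and 156 CPM against 0 to 92.5 CPM (2.60, FDR 0.0221), a call lost in 7 of 16 alternatives. It is shared with the list of neural crest and ganglion genes, of which it was the only one of 5 tested to pass (1.14% of all genes were higher). The summed level of that list was 629 to 842 CPM in spinal cord and 46.6 to 588 CPM in brain, and its part in the neuronal differences was not tested. *Ebf2* and *Ebf3*, factors of early neurons that mesenchyme also uses, had log2 fold changes of 3.69 and 3.50 (FDR 0.00022 and 0.000294). *Lamp5*, a membrane protein of some neurons, was at 182, 78.1 and 88.9 CPM in spinal cord with brain chips at 0, a bound of 36.9-fold.

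**Figure D4:**
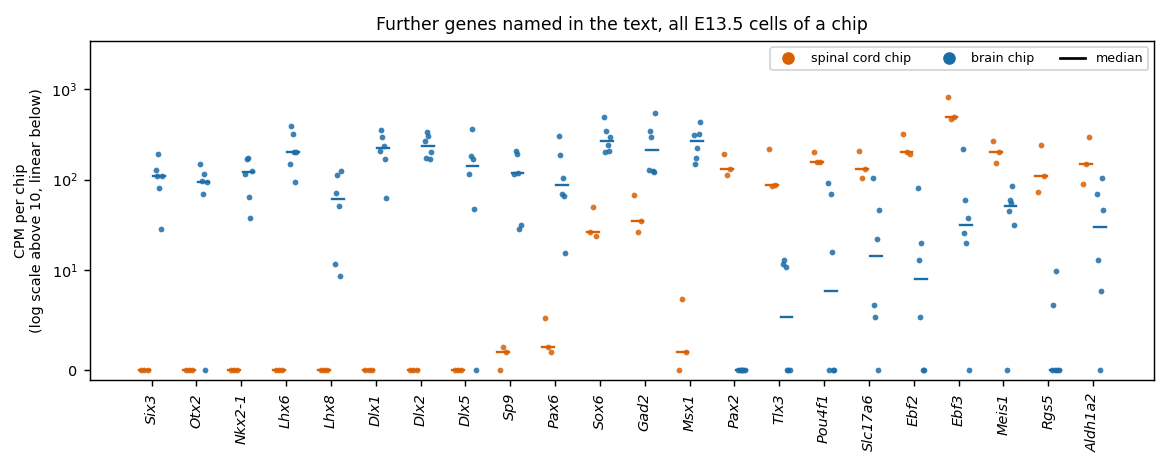
Levels of further named genes (y axis, CPM per chip, log scale above 10 and linear below) on 3 spinal cord and 6 brain chips, with medians as bars. The genes from *Six3* to *Dlx5* lie at 0 on the spinal cord chips, and *Pax2* lies at 0 on the brain chips.

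Among 18 tested radial glia genes 2 were lower in spinal cord (0.928% of all genes), *Sox9* and *Pax6*, and none higher. The call of *Sox9* was lost in 4 of 17 alternatives and that of *Pax6* in 1 of 16. *Sox1*, a factor of neural progenitors, had a log2 fold change of -5.28 (FDR 0.000351), and *Sox9* one of -2.21 (FDR 0.009). Of the cell cycle list 1 of 15 tested genes passed, *Top2a*, which was lower in spinal cord (0.928% of all genes). *Top2a*, which untangles DNA in dividing cells, was at 83.2, 104 and 54.4 CPM against 140 to 652 CPM in brain (-1.97, SE 0.45, FDR 0.0188), a call lost in 6 of 17 alternatives. The list as a whole summed to 551 to 1155 CPM in spinal cord and 1177 to 3027 CPM in brain, so its groups did not overlap. Of 10 tested Wnt genes 4 were lower (0.928% of all genes), the secreted enhancers *Rspo2* and *Rspo3* and the nuclear effectors *Tcf7l2* and *Lef1*. *Rspo3* was at 0, 16.6 and 10.9 CPM against 0 to 416 CPM (-4.25, SE 0.82, FDR 0.00478), with brain chips 24 and 25 at the low end. The calls were lost in 8 of 14 alternatives for *Lef1*, 6 of 16 for *Tcf7l2*, 4 of 16 for *Rspo2* and 2 of 17 for *Rspo3*. None of 5 tested hedgehog genes and none of 13 tested BMP and TGF-beta genes passed. Of the retinoic acid list 1 of 6 tested genes passed, *Aldh1a2*, which was higher in spinal cord (1.14% of all genes). *Aldh1a2*, the embryonic enzyme that makes retinoic acid, was at 88.4, 149 and 294 CPM against 0 to 103 CPM (2.64, SE 0.65, FDR 0.0319). Brain chip 24 stood above spinal cord chip 4, and the call was lost in 8 of 15 alternatives.

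Of 15 genes on a list of pericytes, the contractile cells of small vessels, 4 could be tested and 3 were higher in spinal cord (1.14% of all genes), *Rgs5*, *Acta2* and *Myl9*. *Rgs5* passed the filter only through spinal cord, so the count was set in part by the filter and is a description. The call of *Myl9*, whose chips overlapped, was lost in 9 of 15 alternatives, and that of *Acta2* in 2 of 13. *Rgs5*, a pericyte marker, was at 72.8, 239 and 111 CPM against 0 to 9.91 CPM in brain (log2 fold change 4.73, SE 0.62, FDR 7.25e-05). *Acta2*, smooth muscle actin, was at 36.4, 279 and 194 CPM against 0 to 77.6 CPM (4.39, SE 0.78, FDR 0.00215), with brain chip 25 above spinal cord chip 4. The whole pericyte list summed to 587.5 to 1509 CPM in spinal cord and 57.8 to 916 CPM in brain, so its groups overlapped. Of 37 tested genes of the meningeal list 5 were higher (*Igfbp5*, *Igfbp7*, *Aldh1a2*, *Ebf1* and *Ebf2*, against 1.14% of all genes) and 1 lower (*Slc22a6*, against 0.928%). The call of *Slc22a6* was lost in 4 of 13 alternatives, that of *Ebf1* in 3 of 16 and that of *Igfbp5* in 1 of 17. None of 12 tested stress genes and not the 1 tested cartilage gene passed. By cell, a molecule of *Rgs5* was seen in 36 of 209 spinal cord and 3 of 293 brain cells (10.0% and 0.683% when thinned), and one of *Acta2* in 23 and 4 cells (6.70% and 0.683%).

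Within the mesenchymal-marked cells (18, 49 and 51 per spinal cord chip and 5 to 34 per brain chip), 12 of 1464 tested genes differed (0.82%), 5 higher (0.342%) and 7 lower (0.478%). The genes higher in spinal cord were *Igfbp5*, *Hoxc8*, *Ebf3*, *Agps* and *Igf2*. *Igfbp5*, which binds insulin-like growth factors, was at 3125, 2021 and 3610 CPM in spinal cord chips 4, 7 and 8 and at 23.9 to 455 CPM in brain (log2 fold change 4.49, SE 0.44, FDR 2.96e-07). *Hoxc8* was at 222, 171 and 229 CPM with no molecule in mesenchymal-marked brain cells (at least 28.6-fold, FDR 0.00151). *Ebf3* was at 205, 308 and 349.5 CPM against 0 to 56.3 CPM (3.73, SE 0.63, FDR 0.00126). Its call was lost in 2 of 15 alternatives and that of *Agps* in 3 of 15. *Igf2*, a growth factor, was at 3654, 2828 and 3413 CPM against 1176 to 1971 CPM (1.08, SE 0.26, FDR 0.0392), a call lost in 11 of 17 alternatives.

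Lower in spinal cord outside the gate list were *Msx1*, *Slc22a6*, *Ranbp3l*, *Cped1*, *Vegfa* and *Apod*. *Msx1*, a homeobox gene of cranial mesenchyme and dorsal midline, was at 0, 7.61 and 0 CPM in spinal cord and at 114 to 526 CPM in brain (log2 fold change -6.45, SE 0.74, FDR 4.16e-06). One such spinal cord cell of 118 held a molecule, against 43 of 97 brain cells. *Slc22a6*, an organic anion transporter of the meninges, was at 0, 7.61 and 5.87 CPM against 113 to 340 CPM (-4.78, SE 0.84, FDR 0.00159). *Vegfa*, the vascular growth factor, was at 120, 53.3 and 96.9 CPM against 191 to 680 CPM (-2.10, SE 0.47, FDR 0.0226), and *Apod*, a lipid-binding protein, had a log2 fold change of -1.70 (FDR 0.0251). The calls were lost in 10 of 16 alternatives for *Cped1*, 9 of 17 for *Apod*, 8 of 15 for *Vegfa*, 4 of 15 for *Ranbp3l* and 1 of 12 for *Slc22a6*. These cells also carried neuronal RNA. A molecule of *Dlx1*, *Dlx2*, *Dlx5* or *Dlx6* was seen in 43.3% of mesenchymal-marked brain cells (20.7% when thinned) and in 72.7% of the neural-marked (46.2%), against 0 of 118 and 0 of 91 in spinal cord. *Tlx3* was seen in 22.9% of mesenchymal-marked and 42.9% of neural-marked spinal cord cells. The part of this RNA in the differences was not tested.

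Within the neural-marked cells 102 of 3983 tested genes differed (2.56%), 56 higher (1.41%) and 46 lower (1.15%). The 13 Hox genes tested there had no molecule in brain and passed the filter only through spinal cord, so that their shared direction was fixed by it. They included *Hoxb3* at 688, 582 and 488 CPM (at least 130-fold, FDR 3.54e-07) and *Hoxb9* at 628, 444 and 531 CPM (at least 120-fold, FDR 3.54e-07). Of 19 tested forebrain factors 13 were lower. *Dlx2* was at 224 to 650 CPM in brain and at 0 in spinal cord (at least 57.3-fold, FDR 1.99e-06). The summed level of the mesenchymal gate list was 120, 3046 and 3516 CPM in neural-marked cells of chips 4, 7 and 8 and 641 to 2450 CPM in brain.

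Whether region acted unlike in the 2 sets was tested as an interaction. Of 4912 genes 2 passed (0.0407%), and 101 had an unadjusted p under 0.05 (2.06%, edgeR). *Igfbp5* differed by -4.81 on the log2 scale (SE 0.71, FDR 8.00e-07), being higher in spinal cord among mesenchymal-marked cells but not among neural-marked ones, where it was at 37.4, 213 and 403 CPM against 0 to 447 CPM (-0.09, SE 0.57, FDR 0.984). *Ccnd2*, a cyclin of the G1 phase, differed by -3.37 (SE 0.75, FDR 0.029). It was lower in spinal cord among neural-marked cells (-2.34, SE 0.59, FDR 0.0263) with 0.62 (FDR 0.741) among mesenchymal-marked ones, and its interaction passed no longer in 6 of 15 alternatives. Of the 12 and 102 genes called in the sets, *Ebf3*, *Hoxc8* and *Msx1* were called in both, which is 25% of the first and 2.94% of the second. They had the same direction, which is a description. *Hoxc8* had no brain molecule in either set, and *Msx1* had 2 spinal cord molecules in each. Both thus passed the filter only through the region where they were high. The sets came from the same chips, and most mesenchymal-marked cells also held the neural list, so they are not independent. Since 1332 genes were tested in both sets, most of the 102 had no test in the other.

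**Figure D5:**
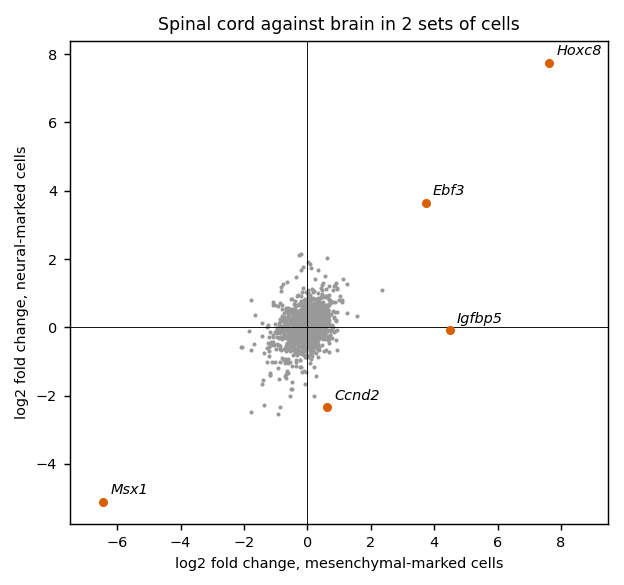
Fitted log2 fold change, spinal cord against brain, in mesenchymal-marked (x axis) and neural-marked cells (y axis) for the 1332 genes tested in both. *Hoxc8*, *Ebf3* and *Msx1* lie far out in the same direction on both axes, *Igfbp5* only along the x axis, and *Ccnd2* lies low on the y axis. The filter set the direction of *Hoxc8* and *Msx1*.

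At postnatal day 7 (P7) region and experiment again cannot be told apart, since the brain chips shared an experiment number that no spinal cord chip had. Of the 109 genes called at E13.5, 29 could still be tested between 5 spinal cord and 2 brain chips of the same line. Of these, 18 had the same direction and 0 passed, where 1 of 4926 genes passed (0.0203%) and 593 had an unadjusted p under 0.05 (12.0%). In simulated counts with log2 fold changes of 2, 20.5% of the changed genes were recovered at P7. Spinal cord chip 23, which had its own experiment number, held 14 cells, 13 of them mesenchymal-marked (92.9%). The other P7 spinal cord chips held 0% to 14.8% such cells. Without chip 23, 442 of 5552 genes passed (7.96%). Of 32 tested genes called at E13.5, 9 then passed, 7 in the same direction and 2 in the opposite one. With all chips DESeq2 also passed 0 of the genes called at E13.5. Hox genes still summed to 429 to 869 CPM on the P7 spinal cord chips, while none of the 39 had a molecule on the P7 brain chips.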

How the data were processed

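Single cells of E13.5 *Pdgfra*-H2B-GFP spinal cord and brain were measured by STRT-seq. The authors deposited molecule counts per gene symbol (24487 rows) and well, not normalized. The submitters' notes name mm10, and the aligner is not given in the sources used here. Groups came from the sample labels. 1 chip was left out, since its title gives P7 and its deposited data are named for E13.5. The members and gene lists were chosen with earlier results of these data known. Counts of all cells of a chip, or of the cells of a set (at least 5 per chip), were summed and compared with edgeR 4.0.16 (TMM, filterByExpr, quasi-likelihood F-test, two-sided, Benjamini-Hochberg over all tested genes, threshold 0.05) in R 4.3.3. For the interaction the chip was a block. CPM are scaled to 1e6 molecules of the summed cells. A fold against a group without molecules was bounded with 3 molecules over the whole group. Intervals cover counting error only.

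Alternatives were DESeq2 1.42.0, RLE factors, no filter, at least 2000 molecules per cell, brain chips 1, 2, 3 and 6 only, thinning to 1000 molecules, leaving out cells of both lists or single chips, gates of 5 molecules from 3 genes, and, chosen after seeing the data, the chip serial series as a covariate. Named genes were all tested Hox genes, called forebrain, spinal and retinoic acid genes, the 15 largest changes each way with chips that did not overlap, *Pdgfra*, *Olig1* and *Olig2*, the 8 largest each way in a set outside its gate lists, the called interaction genes, and up to 4 called examples of other lists. Some genes that this rule picks are not reported here. In simulated counts with log2 fold changes of 2, 64.5% of 200 changed genes were recovered over all cells (5281 genes), 73.5% in mesenchymal-marked (1464) and 56.5% in neural-marked cells (3983), but 2% for the interaction (4912) and 20.5% at P7 (4926). These counts were drawn independently with the same dispersion for every gene. The shares therefore do not measure what the tests recover from the real chips.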

Additional observations from a re-analysis of the deposited data

Results flagged for a closer look

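Of 56 sets of 6 brain values examined, 5 held a chip far from the others by Dixon's criterion, where chance gives about 1 in 20 for normal values, a rate that does not hold for counts with many zeros. They were *Hoxb9* at 15.5 CPM on chip 25 (1 molecule, with the other brain chips at 0), *Ebf3* at 219.6 CPM and *Ebf2* at 80.9 CPM on chip 1, *Tcf7l2* at 289 CPM on chip 3 and *Acta2* at 77.6 CPM on chip 25. The *Acta2* value lay above that of spinal cord chip 4. The regional difference of *Igfbp5* differed between the sets of cells by -4.81 (log2, neural-marked minus mesenchymal-marked) and that of *Ccnd2* by -3.37, each by the test of the interaction.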

How the results depend on the processing

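No paired analysis was possible because spinal cord and brain chips share no replicate number (sets of cells were compared within chips). Of all cells, 109 genes passed, against 169 with DESeq2, 279 with no filter on low counts, 205 with brain chips 1, 2, 3 and 6 only, 29 with cells thinned to 1000 molecules, 37 without cells holding both lists, and 63 to 125 when single chips were left out (63 without spinal cord chip 8, 68 without chip 4). Of the Hox genes 14 passed, against 23, 5 and 8 with no filter, thinning and without cells holding both lists. In mesenchymal-marked cells 12 passed, against 36 with DESeq2, 77 with no filter, 1 when thinned, 6 without cells holding both lists, and 4 to 16 with single chips left out (4 without spinal cord chip 8, 5 without chip 7). In neural-marked cells 102 passed, against 182 with no filter, 17 when thinned and 67 to 122 with single chips left out (67 without spinal cord chip 8). For the interaction 2 genes passed, against 1 to 3 with single chips left out. It could not be fitted without cells holding both lists. At P7, 0 of the genes called at E13.5 passed, against 2 with no filter and 0 to 7 with single chips left out (7 without spinal cord chip 23). The difference in the mesenchymal share turned to -3.18 percentage points without cells holding both lists. The log2 fold change of *Pdgfra*, -0.41, turned to 0.85 with brain chips 1, 2, 3 and 6 only, 0.10 without cells holding both lists and 0.010 with the serial series as a covariate, and ran from -0.69 to 0.072 with single chips left out (0.072 without brain chip 25). These causes were not tested. Of the named genes' alternatives over all cells, 849 kept direction and side of the threshold, 86 kept direction only and 4, all of *Pdgfra*, reversed. The counts were 116 and 48 in mesenchymal-marked and 322 and 0 in neural-marked cells, with none reversed. Alternatives in which a gene had no test are not in these counts, nor in the totals of alternatives given for single genes. Where a gene had few molecules, depth limited what could be tested, as the thinned counts show.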
